A study of Oryza sativa Indica Group with 12 samples.

Results

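Of the anchors of H3K9me2 loops in rice leaf, 313 of 3245 in MH63 (9.65%, Wilson 95% interval 8.68 to 10.7%) and 259 of 3288 in ZS97 (7.88%, 7.01 to 8.85%) overlapped an anchor of an H3K4me3 or RNAPII loop of the same variety. These anchors, called overlapping anchors here, were chosen by that measured overlap of at least 1 bp, and the remaining 2932 MH63 and 3029 ZS97 anchors are called the other H3K9me2 anchors. The 6 loop lists used held 43509 anchors in all, and only loops within a chromosome. Most of the overlaps were short and lay across an end of the H3K9me2 anchor. After a trimming that would take back the extension of the underlying peaks, if this was by 10% of the peak width at each end, 60 MH63 and 35 ZS97 anchors still overlapped.

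ChIA-PET pulls down cross-linked chromatin that carries a chosen mark or protein and ligates fragments held together, and a paired-end tag (PET) is a sequenced pair of such fragments. The varieties were Minghui 63 (MH63) and Zhenshan 97 (ZS97), both indica rice without further treatment, and the tissue was young leaf of 2-week-old seedlings from a phytotron, cross-linked with formaldehyde and EGS. For each variety, libraries were made with antibodies against H3K4me3, RNA polymerase II (RNAPII) and H3K9me2, with 2 replicates each and 12 libraries in all. The replicates had been joined before the loops were called, so each of the 6 lists is a single set of loops, none of the values below has a spread between replicates, and none was tested between groups. The intervals given are 95% intervals for counting error only, and anchors along a chromosome are not independent of each other.

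H3K9me2 is a histone mark of plant heterochromatin, found mostly on transposable elements, and in Arabidopsis it is maintained together with non-CG DNA methylation. H3K4me3 marks the beginnings of active genes, and RNAPII is the enzyme that transcribes them. An anchor that is found with a heterochromatin mark and with an active mark is therefore of interest as a place where the kinds of chromatin meet. A leaf holds several cell types, and the libraries were made from separate pull-downs, so an overlap of intervals does not show that the marks were on the same molecule or in the same cell.

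The H3K9me2 lists held 5627 loops in MH63 and 6934 in ZS97, with 55405 and 95484 PETs in loops. All loops in the lists joined anchors of the same chromosome. The paper also counts loops between chromosomes, and the overlaps, partners and loop numbers given here leave those out. The H3K4me3 lists held 55011 and 76602 PETs in loops and the RNAPII lists 191725 and 197758, and the lists do not carry the libraries' totals. Loops had a PET count of at least 4, or of at least 6 in the ZS97 RNAPII list. H3K9me2 anchors were much wider than the active ones, with medians of 11.6 kb in MH63 and 9.99 kb in ZS97 against 1.34 and 1.52 kb for H3K4me3 and 2.74 and 1.78 kb for RNAPII.

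In MH63, 137 of the overlapping anchors were overlapped by H3K4me3 anchors only, 140 by RNAPII anchors only and 36 by both. In ZS97 the numbers were 142, 87 and 30. Where both were present, the H3K4me3 and RNAPII anchors mostly overlapped each other as well, on 30 of 36 H3K9me2 anchors in MH63 and 25 of 30 in ZS97. A single active anchor was the usual case, at 261 of 313 and 211 of 259 anchors, and the highest number on an H3K9me2 anchor was 4 in both varieties.

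The bases shared were few. The median overlapping anchor shared 822 bp (707 to 933) with active anchors in MH63 and 664 bp (580 to 845) in ZS97, which was 5.75% and 4.37% of its length. Active anchors covered less than 10% of the length of 235 of the 313 MH63 anchors (75.1%) and 215 of the 259 ZS97 anchors (83.0%). They covered at least 50% of 14 and 11 anchors, and the whole of 7 and 4. Over all overlapping anchors together, 0.421 of 5.49 Mb (7.66%) in MH63 and 0.288 of 4.98 Mb (5.79%) in ZS97 lay under an active anchor. The anchors with both active marks had the highest median width, at 17.1 kb (15.2 to 19.1) in MH63 and 18.2 kb (15.1 to 23.0) in ZS97. With H3K4me3 only it was 14.0 kb (11.4 to 15.5) and 15.0 kb (13.2 to 16.5), whose intervals overlap those. With RNAPII only it was 12.2 kb (10.3 to 13.4) and 12.3 kb (9.745 to 14.6). A wider interval can meet more active anchors, so width is not independent of this grouping. Anchors with RNAPII only shared more bases, 931 and 1012 bp, than those with H3K4me3 only, 526 and 467 bp.

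The active anchors lay mostly across an end of the H3K9me2 anchor. Of the pairs formed by an H3K4me3 and an H3K9me2 anchor, 147 of 191 in MH63 (77.0%, 70.5 to 82.4%) and 156 of 182 in ZS97 (85.7%, 79.9 to 90.1%) ran over an end, 43 and 26 were wholly inside, and 1 and 0 covered the H3K9me2 anchor, where 0 of 182 has a Wilson upper bound of 2.07%. For RNAPII, 161 of 191 pairs in MH63 (84.3%, 78.5 to 88.8%) and 111 of 137 in ZS97 (81.0%, 73.6 to 86.7%) ran over an end, 24 and 22 were inside, and 6 and 4 covered the H3K9me2 anchor. The midpoint of the active anchor lay more than 5 kb inside in only 3 and 2 H3K4me3 pairs and in 9 and 6 RNAPII pairs. Counted from the nearer end, with negative values outside the H3K9me2 anchor, the median midpoint of an RNAPII anchor lay at -0.99 kb (-1.37 to -0.587) in MH63 and -0.657 kb (-0.992 to -0.372) in ZS97. For H3K4me3 it lay at -0.051 kb (-0.185 to 0.092) and -0.196 kb (-0.252 to -0.113), closer to the end. A pair shares at least 1 bp, so the active anchor's width limits how far outside its midpoint can lie. The median widths were 1.33 and 1.46 kb for these H3K4me3 anchors and 4.81 and 4.05 kb for these RNAPII anchors. The contrast between the targets is therefore not independent of anchor width.

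**Figure D1:**
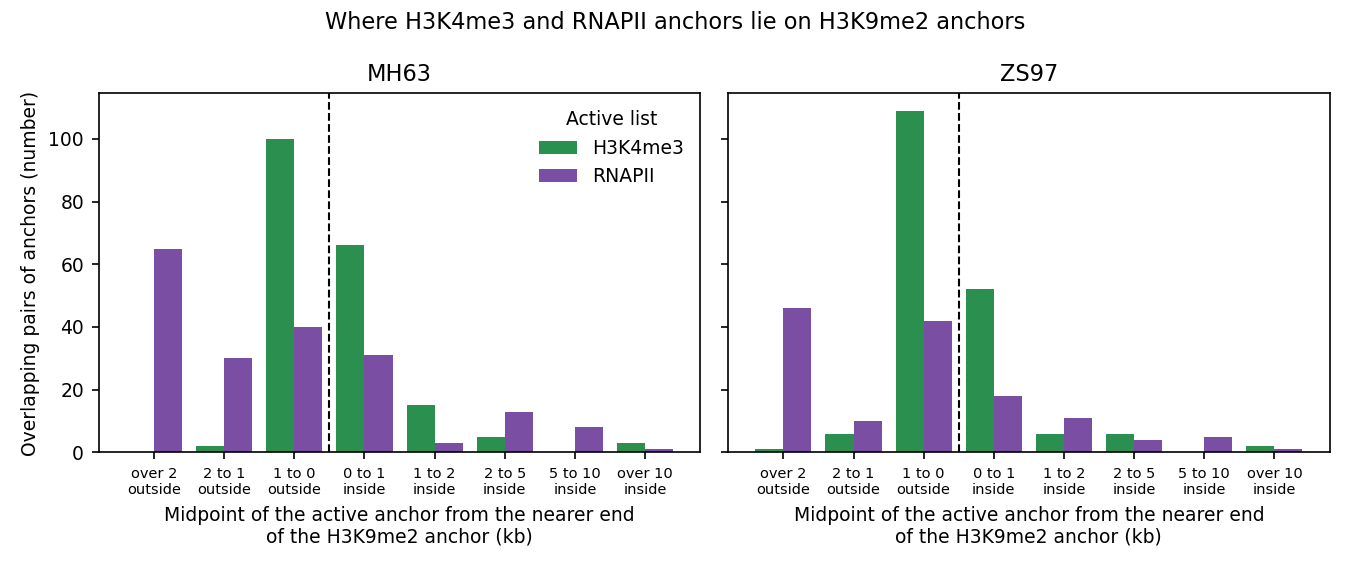
Number of pairs of an active and an H3K9me2 anchor (vertical axis) by the distance in kb of the active anchor's midpoint from the nearer end of the H3K9me2 anchor (horizontal axis, dashed line at the end), for H3K4me3 (green) and RNAPII (purple). The H3K4me3 pairs pile up within 1 kb on both sides of the end, 100 outside and 66 inside in MH63 and 109 outside and 52 inside in ZS97, while 65 MH63 and 46 ZS97 RNAPII midpoints lay over 2 kb outside. The distance outside is limited by the active anchor's width, which was larger for RNAPII.

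The place of these overlaps matters for how they were measured, because the anchors are ChIP-seq peaks that the authors extended by 10% on both sides before calling loops. If that was 10% of the peak width at each end, the added part is the outer 1/12 of the anchor at each end. In 180 of the 191 H3K4me3 pairs of MH63 (94.2%, 90.0 to 96.8%) and 175 of the 182 of ZS97 (96.2%, 92.3 to 98.1%) the shared bases lay wholly within the outer 1/12 of the H3K9me2 anchor. For RNAPII the same held for 102 of 191 (53.4%, 46.3 to 60.3%) and 83 of 137 pairs (60.6%, 52.2 to 68.4%). H3K4me3 anchors were the narrower ones, so this contrast between the targets is not independent of anchor width either.

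When all intervals of the 3 lists were trimmed by 1/12 of their width at both ends, the share of H3K9me2 anchors that overlapped an active anchor fell to 1.85% in MH63 (60 anchors, 1.44 to 2.37%) and 1.06% in ZS97 (35 anchors, 0.766 to 1.48%). Because trimming only shortens intervals, the 60 and the 35 were by construction among the overlapping anchors before trimming, 19.2% and 13.5% of them. RNAPII made up nearly all that was left, with 67 MH63 and 45 ZS97 pairs against 8 and 2 pairs for H3K4me3. The RNAPII anchors were also wider than the H3K4me3 anchors, and the part of width in this contrast was not tested. Trimming the H3K9me2 intervals alone, a setting chosen after the values were seen, left 90 and 51 anchors. With a minimum overlap of 500 bp and no trimming, 211 and 155 anchors were left.

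**Figure D2:**
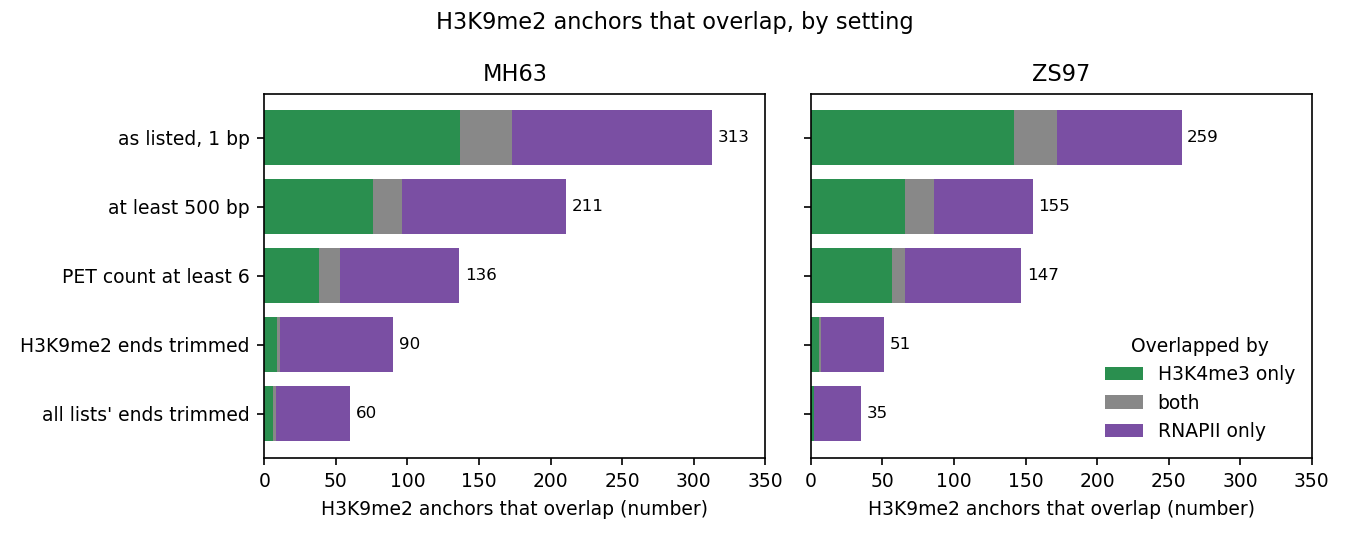
Number of H3K9me2 anchors that overlap an active anchor (horizontal axis) under 5 settings (vertical axis), split by whether only H3K4me3 anchors (green), only RNAPII anchors (purple) or both (grey) overlap them. The bars shorten from 313 to 60 in MH63 and from 259 to 35 in ZS97 once the ends of all intervals are trimmed, and the green part nearly goes. H3K4me3 anchors were narrower than RNAPII anchors, and the part of width in this contrast was not tested.

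The anchors that still overlapped after trimming differed from the rest of the overlapping anchors in how much they shared. As listed, before trimming, the 60 MH63 anchors shared a median of 1938 bp or 20.1% of their length with active anchors (16.6 to 29.3%), and the 253 that dropped out shared 656 bp or 4.87%. In ZS97 the 35 shared 2217 bp or 26.4% (20.03 to 47.1%) and the 224 that dropped out 575 bp or 3.96%. The anchors left were also narrower as listed, with a median width of 9.58 kb (7.05 to 13.1) against 14.4 kb (13.3 to 15.5) in MH63 and 10.46 kb (5.81 to 13.7) against 15.1 kb (14.1 to 16.5) in ZS97. Both the shared bases and the width bear on whether an anchor outlasts the trimming, so these values are a description.

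Overlapping anchors were wider than the other H3K9me2 anchors. The median width was 13.5 kb (12.5 to 15.0) against 11.3 kb (10.8 to 11.8) in MH63, and 14.8 kb (13.5 to 15.7) against 9.55 kb (9.12 to 9.96) in ZS97. The medians of the overlapping anchors were the higher ones on 11 of 12 chromosomes in MH63 and 12 of 12 in ZS97. A wider interval has more bases with which to meet another, so width is not independent of the way the anchors were selected on overlap. By width class, the share that overlapped was highest at 10 to 20 kb in both varieties, with intervals that overlap those of the widest class. It was 5.98% (4.39 to 8.11%) of MH63 anchors under 5 kb, 12.1% (10.2 to 14.3%) of those of 10 to 20 kb and 8.30% (5.49 to 12.4%) of those of 40 kb or wider. In ZS97 the same classes gave 3.35% (2.32 to 4.84%), 12.6% (10.6 to 14.9%) and 11.4% (7.80 to 16.4%). With trimmed intervals the MH63 difference in width turned round, at 7.98 kb for overlapping and 9.65 kb for other anchors, and the ZS97 medians were 8.72 kb (4.84 to 11.4) and 8.32 kb (8.01 to 8.67).

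The number of partners, meaning other H3K9me2 anchors joined to an anchor by a loop, followed width more closely than overlap. At least 3 partners were found at 43.8% of overlapping anchors (38.4 to 49.3%) and 42.0% of other anchors (40.2 to 43.8%) in MH63, and at 55.6% (49.5 to 61.5%) and 48.8% (47.0 to 50.5%) in ZS97. Within the class of 10 to 20 kb the shares were 46.2% and 44.2% in MH63 and 51.3% and 55.5% in ZS97, so that the order in ZS97 turned round. It was also the reverse in MH63 at 5 to 10 kb, with 20.8% of overlapping (13.1 to 31.6%) and 30.1% of other anchors (26.9 to 33.6%), and at 20 to 40 kb, with 64.6% and 70.4%, and in ZS97 at 20 to 40 kb, with 72.3% and 78.4%. In the class of 40 kb or wider, all 21 overlapping anchors of MH63 and all 24 of ZS97 had at least 3 partners, against 87.5% and 93.5% of the other anchors. Over all widths, the range was from 1 to 24 partners for overlapping anchors and from 1 to 40 for other anchors in MH63, and from 1 to 32 and from 1 to 42 in ZS97. The PET counts of an anchor's loops summed to a median of 13 for overlapping and 12 for other anchors in MH63, and to 23 (18 to 31) and 18 (16 to 19) in ZS97.

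**Figure D3:**
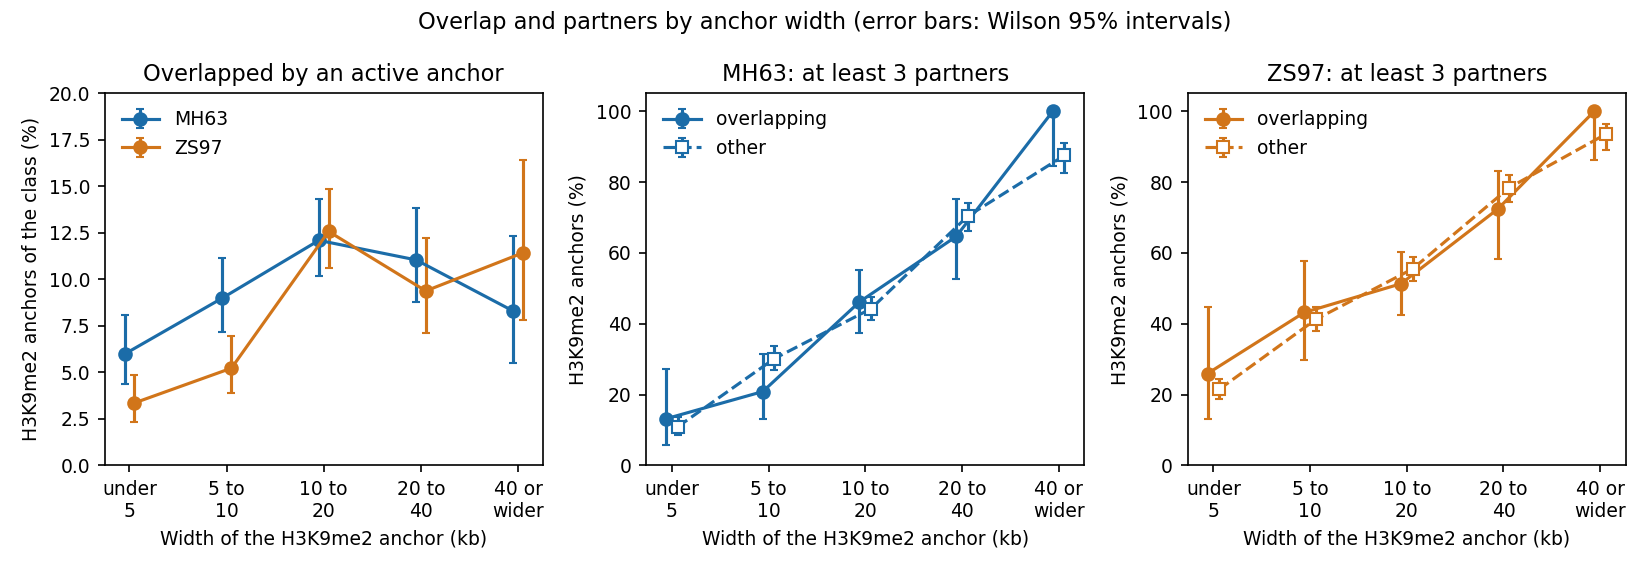
Left, the share of H3K9me2 anchors in each width class that an active anchor overlaps (percent); middle and right, the share of overlapping (filled) and other (open) anchors with at least 3 partners (percent) in MH63 (blue) and ZS97 (orange), with Wilson 95% intervals as error bars. The left curves are highest at 10 to 20 kb in both varieties, at 12.1% and 12.6%, and in the other panels the filled and open symbols rise together with width.

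Over all widths, overlapping anchors had fewer H3K9me2 anchors and more active anchors around them than other H3K9me2 anchors. Within 200 kb of an overlapping anchor there was a median of 5 H3K9me2 anchors (4 to 6) in MH63 and 5 (4 to 6) in ZS97, against 7 (7 to 7) and 8 (8 to 8) around other anchors. By chromosome, the median was lower at overlapping anchors on 6, equal on 4 and higher on 2 of 12 in MH63, and lower on 11 and higher on 1 of 12 in ZS97. By width, it was also not lower everywhere. Among anchors of 40 kb or wider it was 10 at overlapping and 9 at other anchors in MH63 and 12.5 and 11 in ZS97, and under 5 kb it was 7 and 7 in MH63. Counting only active anchors that did not overlap it, a median of 9 H3K4me3 anchors (8 to 10) lay within 200 kb of an overlapping anchor in MH63 and 11 (10 to 13) in ZS97, against 3 (3 to 4) and 5 (4 to 5) around other anchors. For RNAPII the medians were 7 (5 to 9) and 6 (5 to 7) against 3 and 2. More active anchors nearby also give more chances of an overlap, so the active neighbours belong to what the selection used, and the H3K9me2 neighbours do so less directly. Anchors with both active marks had the most H3K4me3 neighbours, with medians of 12 (8 to 18) in MH63 and 17.5 (12 to 22) in ZS97, and the fewest H3K9me2 neighbours, with medians of 3 (2 to 8) and 4 (3 to 6). The intervals for H3K4me3 neighbours overlap those of the anchors with a single active mark in MH63. In ZS97 they overlap that of anchors with RNAPII only, 13 (11 to 16), but not that of anchors with H3K4me3 only, 10 (8 to 11). For H3K9me2 neighbours the intervals overlap those of the anchors with a single active mark in both varieties.

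**Figure D4:**
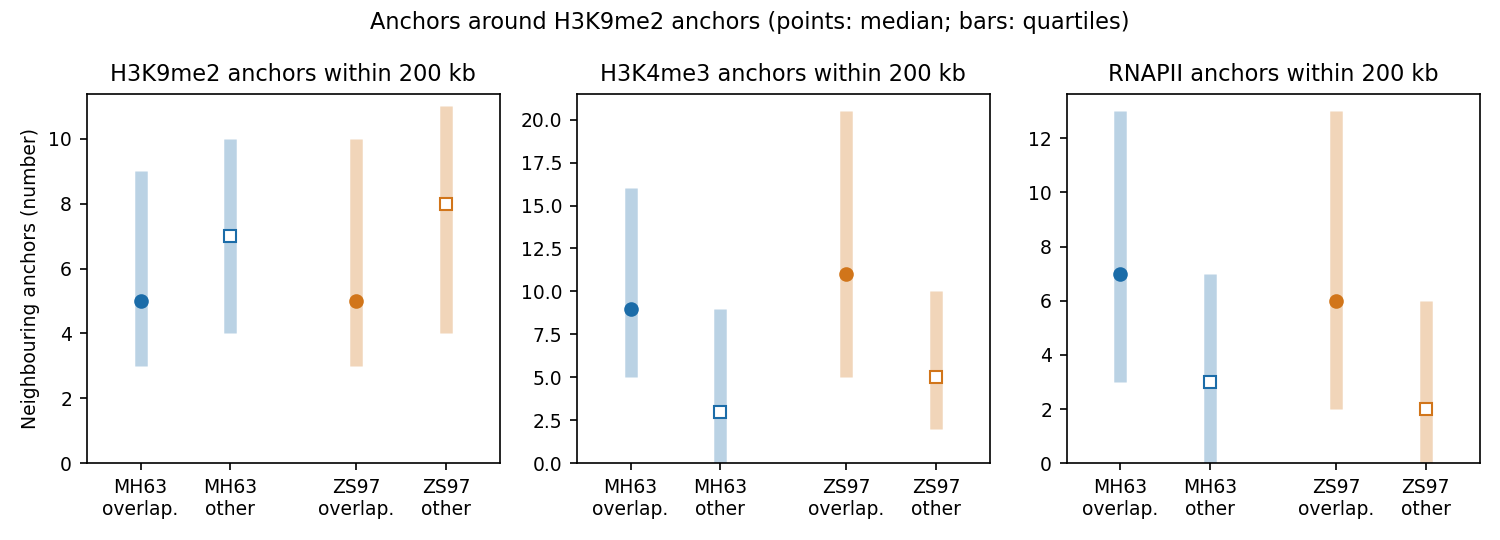
Number of H3K9me2, H3K4me3 and RNAPII anchors (vertical axes, separate scales) within 200 kb of overlapping (filled) and other (open) H3K9me2 anchors in MH63 (blue) and ZS97 (orange), with medians as points and quartiles as bars. The medians for H3K9me2 fall from 7 and 8 at other anchors to 5 at overlapping ones, and those for H3K4me3 go from 3 and 5 to 9 and 11, while the quartile ranges overlap.

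Along the chromosomes the overlapping anchors were spread widely, where the highest coordinate in the lists was taken as a chromosome's length. The median distance to the nearer chromosome end was 32.9% of the chromosome length (29.1 to 36.5%) for overlapping and 35.5% (34.7 to 36.0%) for other anchors in MH63, and 31.8% (27.1 to 34.9%) and 35.5% (34.8 to 36.3%) in ZS97. The intervals of the medians overlapped in MH63 and hardly in ZS97, and the order was the same on 10 of 12 chromosomes in MH63 but on 7 of 12 in ZS97. Overlap with H3K4me3 anchors was most frequent in the outer 10% of chromosome length, at 8.98% of the H3K9me2 anchors there in MH63 and 10.0% in ZS97. At 10 to 20% of the length it was 8.76% and 7.08%, and in the central class of 40 to 50% it was 4.73% and 4.51%. The density of H3K4me3 anchors along the chromosomes was not taken into account. RNAPII overlap had no such order. It was 4.79% and 2.58% in the outer class, 6.95% and 6.78% at 10 to 20% of the length, and 4.90% and 2.51% in the central class. Among chromosomes, the share of overlapping anchors ranged from 5.26% on chromosome 7 (3.10 to 8.80%) to 18.0% on chromosome 1 (14.0 to 22.8%) in MH63, and from 4.29% on chromosome 4 (2.58 to 7.08%) to 12.3% on chromosome 5 (9.01 to 16.5%) in ZS97. In ZS97, 2 H3K9me2 anchors on a sequence outside the 12 chromosomes are left out of these positions.

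Loops with an overlapping anchor made up 1062 of 5627 H3K9me2 loops in MH63 and 1143 of 6934 in ZS97. In MH63 945 of them had an overlapping anchor at 1 end and 117 at both, and in ZS97 1035 and 108. The median span between anchor midpoints was 101.2 kb (96.3 to 108.0) for loops with no overlapping anchor, 125.9 kb (109.1 to 140.8) with 1 and 67.8 kb (45.8 to 92.5) with 2 in MH63. In ZS97 the same medians were 113.6 kb (108.0 to 119.3), 137.9 kb (121.6 to 154.7) and 91.5 kb (65.4 to 117.6). Spans over 1 Mb were found in 18.0% of MH63 loops with an overlapping anchor (15.8 to 20.4%) and 13.5% of those without (12.5 to 14.5%), and in 13.4% (11.5 to 15.5%) and 12.8% (11.96 to 13.7%) in ZS97. The higher span did not hold under every setting. With PET counts of at least 6 the MH63 medians were 85.4 kb with and 93.6 kb without an overlapping anchor, and with both anchors of 10 to 20 kb the ZS97 medians were 75.3 and 78.2 kb.

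PET counts of at least 10 were reached by 30.4% of loops with an overlapping anchor (27.7 to 33.2%) and 28.8% of those without (27.5 to 30.1%) in MH63. In ZS97 the shares were 49.8% (46.9 to 52.7%) and 40.9% (39.7 to 42.2%), and the order was the same on 11 of 12 chromosomes. Wider anchors collect more PETs, and among ZS97 loops whose anchors summed to 40 kb or more the shares were 66.7% (63.0 to 70.2%) and 56.3% (54.5 to 58.0%), while at 20 to 40 kb they were 29.3% (24.8 to 34.2%) and 26.8% (24.8 to 28.8%). In MH63 the class of 40 kb or more gave 42.2% (38.3 to 46.3%) and 38.1% (36.3 to 39.9%), and at 20 to 40 kb the order was the reverse, at 16.8% (13.3 to 20.9%) and 17.2% (15.3 to 19.4%). Where both anchors were of 10 to 20 kb, 10 of 99 MH63 loops with an overlapping anchor reached 10 PETs (10.1%, 5.58 to 17.6%) against 23.0% of 304 without, the opposite order.

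Overlapping anchors lay near each other. Of the H3K9me2 anchors up to 50 kb from an overlapping anchor, 27.0% (23.3 to 31.1%) in MH63 and 20.8% (17.0 to 25.03%) in ZS97 were themselves overlapping, against 7.19% (6.51 to 7.94%) and 5.40% (4.85 to 6.01%) around other anchors. At 50 to 200 kb the shares were 13.2% and 8.20% in MH63 and 11.8% and 5.98% in ZS97. Only 10 MH63 and 8 ZS97 pairs shared the same active anchor. Overlapping anchors were chosen by active anchors, which lay more densely around them. Their nearness to each other is therefore not independent of that choice.

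The partners of overlapping anchors were also more often overlapping anchors. The far end of a loop lay on an overlapping anchor for 19.8% of the loop ends at overlapping anchors (17.7 to 22.2%) and 9.38% of those at other anchors (8.83 to 9.97%) in MH63, and for 17.3% (15.3 to 19.5%) and 8.20% (7.74 to 8.69%) in ZS97. The first share was the higher one on 11 of 12 chromosomes in MH63 and on 12 of 12 in ZS97. The difference was largest of the 4 span classes for loops of up to 50 kb, at 28.7% against 7.97% in MH63 and 22.7% against 6.70% in ZS97. These shares were near those among all H3K9me2 anchors at that distance, joined or not, 27.0% against 7.19% and 20.8% against 5.40%. At 50 to 200 kb the loop shares were 18.1% against 9.63% and 17.9% against 8.65%. Among all anchors at that distance they were 13.2% against 8.20% and 11.8% against 5.98%. At 200 kb to 1 Mb the loop shares were 9.30% (6.10 to 13.9%) against 9.25% in MH63 and 12.3% (9.06 to 16.4%) against 9.14% in ZS97. Over 1 Mb they were 19.0% (14.2 to 24.8%) against 12.2% and 14.5% (9.97 to 20.7%) against 8.69%. Between anchors of 10 to 20 kb the shares were 16.7% (10.8 to 24.8%) and 12.9% (10.6 to 15.6%) in MH63, whose intervals overlap, and 35.9% (28.1 to 44.5%) and 8.97% (7.29 to 11%) in ZS97.

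All pairs of H3K9me2 anchors were also counted in classes of distance, whether joined by a loop or not. Distances within a class were not matched, and every listed anchor has at least 1 loop. Overlapping anchors were also wider and had fewer H3K9me2 anchors around them. The part of these differences in the shares below was not tested. At 50 to 200 kb, an H3K9me2 loop joined 36 of 89 pairs of overlapping anchors in MH63 (40.4%, 30.9 to 50.8%) and 41 of 66 in ZS97 (62.1%, 50.1 to 72.8%). Pairs of other anchors at this distance were joined in 23.2% of 6579 cases (22.2 to 24.2%) in MH63 and 25.8% of 7725 (24.8 to 26.8%) in ZS97, and mixed pairs in 27.7% and 38.4%. Up to 50 kb the shares for pairs of overlapping and of other anchors were 76.1% (64.7 to 84.7%) and 62.8% (60.8 to 64.7%) in MH63 and 87.8% (74.5 to 94.7%) and 62.3% (60.4 to 64.1%) in ZS97. At 200 kb to 1 Mb they were 3.15% (1.72 to 5.71%) and 2.96% in MH63, and 9.31% (6.04 to 14.1%) and 3.57% in ZS97. When both anchors were of 10 to 20 kb and 50 to 200 kb apart, 1 of 8 MH63 pairs of overlapping anchors was joined (12.5%, 2.24 to 47.1%) against 22.5% of 444 pairs of other anchors, and 10 of 17 ZS97 pairs (58.8%, 36.0 to 78.4%) against 30.6% of 520.

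**Figure D5:**
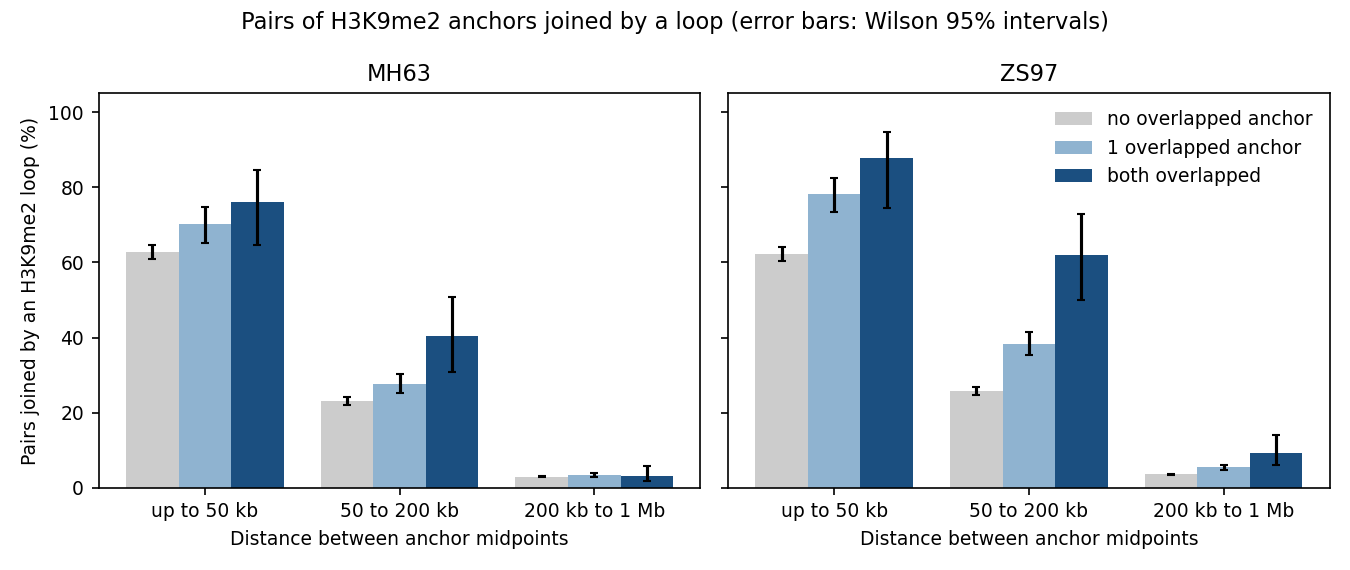
Share of pairs of H3K9me2 anchors joined by an H3K9me2 loop (percent, vertical axis) by the distance between their midpoints, for pairs in which no anchor (grey), 1 anchor (light blue) or both anchors (dark blue) overlap an active anchor, with Wilson 95% intervals as error bars. At 50 to 200 kb the bars rise from 23.2% to 40.4% in MH63 and from 25.8% to 62.1% in ZS97. Anchor width, number of neighbours and distance within a class were not matched.

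Some pairs of overlapping anchors were joined by an H3K9me2 loop and also by an active loop whose anchors overlapped them. There were 25 such H3K9me2 loops of 117 in MH63 (21.4%, 14.9 to 29.6%) and 24 of 108 in ZS97 (22.2%, 15.4 to 30.9%). RNAPII alone joined 18 of the pairs in MH63 and 12 in ZS97, H3K4me3 alone 6 and 12, and both together 1 and 0. They were short, with median spans of 30.4 kb (19.96 to 62.2) and 47.5 kb (20.1 to 74.8), against 91.3 kb (60.9 to 142.0) and 105.3 kb (74.5 to 181.8) for the remaining loops between overlapping anchors. The active loop had the higher PET count in 10 of 25 and 9 of 24 cases, but PET counts are not scaled between lists. Both anchors of the pair still overlapped after trimming in 7 of the 25 and 3 of the 24. An active loop also lay with both ends on the same H3K9me2 anchor in 20 anchors of each variety, with 26 such loops in MH63, of which 15 were RNAPII loops, and 31 in ZS97, of which 22 were.

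The strongest of these by H3K9me2 PETs in MH63 joined 13076876 to 13142139 with 13148503 to 13163049 on chromosome 2, with an H3K9me2 PET count of 53, an FDR of 5.71e-40 and an H3K4me3 loop of 5 PETs. In ZS97 it joined 13679210 to 13742481 with 13750418 to 13764855 on chromosome 2, with 114 H3K9me2 PETs, an FDR of 1.56e-94 and an H3K4me3 loop of 4 PETs. In both cases the H3K9me2 count was the higher one, though PET counts are not scaled between lists. The H3K9me2 loops spanned 46.3 and 46.8 kb between midpoints, and the H3K4me3 loops only 10.2 and 10.1 kb. The highest active counts among such loops were found elsewhere. In MH63, a loop of 10 H3K9me2 PETs on chromosome 1 between 17712067 to 17721046 and 17731189 to 17759230 was accompanied by RNAPII loops of 79 and 14 PETs. In ZS97, a loop of 44 H3K9me2 PETs over 11.99 kb on chromosome 3, between 1160982 to 1162311 and 1165816 to 1181464, was accompanied by 4 RNAPII loops of 7 to 39 PETs.

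That ZS97 place on chromosome 3 was also the one most covered by RNAPII. The narrower anchor, 1.33 kb wide, was wholly covered, as were 3 more in ZS97, and 91.4% of the wider one, 14309 of its bases, lay under 4 RNAPII anchors. No H3K4me3 anchor overlapped either. The RNAPII anchors on the wider interval took part in 51 RNAPII loops of 6 to 39 PETs, and its own 4 H3K9me2 loops had PET counts from 10 to 44. In MH63 the anchors picked for the largest share of length and the most active anchors lay on chromosome 2. They were chosen by PET sum from 7 and 3 tied anchors. The highest number of shared bases in MH63, 18115, was at another anchor, overlapped by RNAPII only. The anchor from 15551517 to 15557912 lay wholly under its H3K4me3 and RNAPII anchors, had 10 H3K9me2 partners of which 5 were overlapping anchors, and had H3K9me2 loops of 4 to 34 PETs beside active loops of 4 to 44. The neighbouring anchor from 15523503 to 15545999 carried 2 H3K4me3 and 2 RNAPII anchors over 19.2% of its length and had 13 partners.

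The widest and most connected overlapping anchors shared a small part of their length, below the median of 4.37% in ZS97 but above the median of 5.75% in MH63. In MH63 the widest, 134.7 kb on chromosome 9 from 2030550 to 2165204, had 21 partners and lay under 1 RNAPII anchor for 8.67% of its length. In ZS97 it was an anchor of 107.5 kb on chromosome 10, from 922175 to 1029715, with 20 partners and 1.10% of its length under 1 H3K4me3 anchor. The anchor with the most partners was on chromosome 1 in MH63, 15539269 to 15615812, with 24 partners and 6.49% of its length shared. In ZS97 it was on chromosome 5, 11032128 to 11113716, with 32 partners, 1107 H3K9me2 PETs, 1.82% of its length shared and a single H3K4me3 loop of 5 PETs at the active anchor. At the other extreme were anchors with strong active loops and weak H3K9me2 loops. On chromosome 5 of ZS97, 22102154 to 22113065 overlapped active anchors with 96 loops and 2225 PETs but had a single H3K9me2 loop of 4 PETs. On chromosome 5 of MH63, 4777654 to 4784708 lay wholly under an RNAPII anchor with 66 loops and 818 PETs and had a single H3K9me2 loop of 5 PETs. After trimming, the widest ZS97 anchor and the ZS97 anchor with 96 active loops no longer overlapped, while the other anchors named for these properties did.

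The loop with the highest PET count at an overlapping anchor had 174 PETs in MH63, on chromosome 2 between 15433172 to 15465563 and 15471868 to 15506047, of which the second anchor overlapped both active marks. In ZS97 it had 396 PETs and joined 18582629 to 18644326 with 18650973 to 18790144 on chromosome 3, and the first anchor overlapped H3K4me3. Between anchors that both overlapped, the highest counts were 53 PETs over 98.7 kb on chromosome 1 of MH63 and 186 PETs over 104.7 kb on chromosome 12 of ZS97.

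The limit of 1 bp placed some anchors very close to the line. In MH63 the anchor with the fewest shared bases, on chromosome 3 from 26915493 to 26933262, shared 1 bp with an RNAPII anchor, and the nearest other anchor, on chromosome 1 from 29936008 to 29958003, lay 1 bp from an active anchor. In ZS97 the anchor on chromosome 1 from 6753447 to 6756627 shared 2 bp with an H3K4me3 anchor, and the one on chromosome 10 from 6219083 to 6240872 adjoined an active anchor with 0 bases between and none shared. Less than 100 bp was shared by 11 MH63 and 23 ZS97 anchors, and 146 and 177 other anchors had an active anchor within 1 kb.

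Seen from the active lists, few anchors took part. The overlaps involved 189 of 10855 H3K4me3 anchors in MH63 (1.74%) and 179 of 11960 in ZS97 (1.50%), and 183 of 7260 (2.52%) and 132 of 6901 (1.91%) RNAPII anchors. The H3K4me3 anchors were about as wide as the rest of their list, 1.33 and 1.34 kb in MH63 and 1.46 and 1.53 kb in ZS97, but fewer of them had at least 3 H3K4me3 partners, 9.52% (6.11 to 14.6%) against 19.7% (18.9 to 20.4%) in MH63 and 16.8% (interval 12 to 22.9%) against 26.8% (26.0 to 27.6%) in ZS97. Their own loops were somewhat longer, with median spans of 20.4 kb (18.0 to 23.2) against 16.2 kb in MH63 and 22.0 kb (20.1 to 24.0) against 17.4 kb in ZS97.

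RNAPII anchors on H3K9me2 anchors were wider than the rest, 4.81 kb (3.99 to 5.48) against 2.70 kb (2.61 to 2.79) in MH63 and 4.05 kb (3.28 to 5.36) against 1.75 kb (1.69 to 1.83) in ZS97, which again also raises the chance of an overlap. At least 3 RNAPII partners were found at 48.1% (41.0 to 55.3%) against 42.2% (41.0 to 43.3%) of them in MH63 and 47.0% (38.7 to 55.5%) against 32.1% (31.0 to 33.3%) in ZS97, the order opposite to that of H3K4me3. Their loops were over 1 Mb in 28.5% of cases (25.8 to 31.4%) against 18.0% (17.4 to 18.6%) in MH63 and in 36.0% (32.7 to 39.4%) against 17.3% (16.7 to 18.0%) in ZS97, while the median PET counts were alike, 6 and 6 in MH63 and 9 and 9 in ZS97. The part of anchor width in these differences was not tested.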

How the data were processed

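Loop lists of 12 libraries were used, with 2 replicates per variety and target that the authors had joined before loop calling. Per the paper's methods, the authors called loops with ChIA-PET Tool, its version not given in the sources used here, between ChIP-seq peaks extended by 10% on both sides. They deposited for each loop its anchors, a PET count (unscaled read pairs joining both anchors), a p-value and an FDR, which was below 0.05. PET counts depend on library depth and anchor width and are not comparable between lists.

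Overlapping or identical intervals of a list were joined into anchors. Partners, spans between midpoints, shared bases, distances and neighbours were computed with pandas 2.3.3 and numpy 2.4.6 under Python 3.11.15, intervals with scipy 1.17.1 and plots with matplotlib 3.10.9, and the code was tested on simulated data. Shares have Wilson and medians order-statistic 95% intervals. Positions are 1-based in the authors' assembly of each variety and were not compared between varieties. Sequences and genes were not analysed here. The anchors, classes and settings were chosen with earlier results of these data known. Named anchors and loops are, by rule, the extremes of width, partners, active anchors, shared length, active PET sum, PET count, shared bases and gap, with ties going to the higher PET sum.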

Additional observations from a re-analysis of the deposited data

How the results depend on the processing

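No paired analysis was possible because the replicates had been joined before loop calling, and for the same reason leaving out a replicate was not possible. Of the 110 values recomputed under other settings, 58 stayed within the 95% counting interval of the value reported, 41 moved outside it and 11 changed the order of overlapping and other anchors. The settings on trimmed H3K9me2 intervals alone, and all settings for joined pairs and for the end by which loops leave, were chosen after seeing the data. Where a value below moved, the cause was not tested, except that a stricter limit by its construction leaves fewer overlapping anchors.

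With all intervals trimmed by 1/12 at both ends, the overlap share was 1.85% in MH63 and 1.06% in ZS97, and with H3K9me2 intervals alone trimmed 2.77% and 1.55%. Median widths were then 7.98 against 9.65 kb (order changed) and 8.72 against 8.32 kb. At least 3 partners were found at 40% against 42.2% and at 45.7% against 49.3% (order changed in both), and the MH63 distance to the chromosome end was 37.7% against 35.2% (order changed). PET counts of at least 10 were reached by 37.7% against 28.7% and 56.1% against 42.1% of loops. Far ends were 12.5% against 2.17% and 3.75% against 1.12%, and the MH63 span was 139.6 against 102.3 kb. Joined pairs at 50 to 200 kb were 64.3% of 14 against 23.9% and 100% of 2 against 27.2%. The share of ZS97 loop ends leaving by the end with the active anchor was 32.7% of 49 (21.2 to 46.6%).

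With at least 500 bp shared, the overlap shares were 6.50% and 4.71%, and widths 15.8 against 11.2 kb and 17.0 against 9.63 kb. Far ends were 14.5% against 7.53% and 9.16% against 5.78%. In MH63 50.7% against 41.6% had at least 3 partners, and 62.8% against 22.8% of pairs at 50 to 200 kb were joined.

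With PET counts of at least 6 in all lists, the overlap shares were 6.28% and 5.98%, and at least 3 partners were found at 32.4% against 36.1% and at 44.9% against 45.0% (order changed in both). The MH63 span was 85.4 against 93.6 kb (order changed), and far ends were 14.7% against 5.48% and 14.8% against 5.64%. Loops with at least 10 PETs were 49.5% against 48.4% and 64.0% against 59.3%.

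With H3K9me2 anchors of 10 to 20 kb, the overlap shares were 12.1% and 12.6%, spans 100.1 against 54.8 kb and 75.3 against 78.2 kb (order changed in ZS97), and far ends 16.7% against 12.9% and 35.9% against 8.97%. Loops with at least 10 PETs were 10.1% against 23.0% (order changed) and 31.4% against 28.4%. In MH63 12.5% of pairs were joined against 22.5% (order changed), and in ZS97 51.3% against 55.5% had at least 3 partners (order changed).

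Over loops of up to 1 Mb, spans were 81.9 kb (71.5 to 89.3) against 78.4 kb (73.7 to 82.7) in MH63 and 101.8 against 88.3 kb in ZS97. Loops with at least 10 PETs were 35.1% against 31.5% and 53.3% against 43.8%. Spans between inner ends were 86.6 against 69.4 kb and 99.1 against 85.9 kb. Between outer ends they were 148.4 against 133.3 kb and 164.5 against 144.4 kb.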

Other observations

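Most overlapping anchors had their active anchors across a single end, 229 in MH63 and 204 in ZS97, so that the H3K9me2 loops of such an anchor could leave by the end with the active anchor or by the other end. They left by the end with the active anchor in 345 of 734 cases in MH63 (47.0%, Wilson 95% interval 43.4 to 50.6%) and 397 of 847 in ZS97 (46.9%, 43.5 to 50.2%), and both intervals include an even split. That did not hold under every setting. Over loops of up to 1 Mb the MH63 share was 45.7% (41.8 to 49.65%). With all intervals trimmed the ZS97 share was 32.7% of 49 loop ends (21.2 to 46.6%). Under the remaining settings the intervals include an even split. Loop ends of the same anchor are not independent of each other. The median number of H3K9me2 anchors within 200 kb was 3 on the side of the active anchor and 3 on the other side in MH63, and 2 and 3 in ZS97. There were more on the side of the active anchor at 87 MH63 and 76 ZS97 anchors, more on the other side at 90 and 89, and as many on both sides at 52 and 39.

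The active loops of the overlapping active anchors also ended on such anchors more often than the loops of other active anchors did. The far end of an H3K4me3 loop lay on another overlapping H3K4me3 anchor for 14.5% of the ends at overlapping anchors (10.9 to 19.0%) and 1.30% of those at other anchors (1.15 to 1.47%) in MH63, and for 12.5% (9.31 to 16.6%) and 1.16% (1.03 to 1.30%) in ZS97. For RNAPII the shares were 12.1% (10.2 to 14.2%) and 2.75% (2.58 to 2.94%) in MH63 and 15.5% (13.2 to 18.2%) and 2.80% (2.60 to 3.01%) in ZS97. The H3K4me3 shares rest on 42 ends in MH63 and 40 in ZS97. Some active loops had both ends on the same H3K9me2 anchor. These were 11 H3K4me3 and 15 RNAPII loops in MH63, and 9 and 22 in ZS97. The overlapping anchors also lie near each other along the chromosome. The part of that nearness, and of loops within a single H3K9me2 anchor, in these shares was not tested.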
